A study of Mus musculus with 6 samples.

Results

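GLI3R, a repressor form of the transcription factor GLI3, was mapped by ChIP-seq and its peaks were examined at 7 genes of insulin-like growth factor (IGF) signalling. They are the ligand genes Igf1 and Igf2, the receptor genes Igf1r, Igf2r and Insr, and the insulin receptor substrate genes Irs1 and Irs2. A peak was counted for a gene when its summit lay inside the gene or within 100 kb of either end, and all 7 genes were found among 21631 protein-coding genes on the chromosomes that hold peaks. The peaks described here were thus chosen by the measured positions of their summits, so the counts below carry no test. The 7 genes were also chosen with earlier results of these data known, which limits every comparison with all genes. Mouse embryonic stem cells of the A2Lox.cre strain, line GLI3R-FTA, were differentiated to cardiac progenitors and collected on day 6. The induced cells received 500 ng/ml doxycycline for 24 h from day 5, and the untreated cells carried the same inducible, tagged GLI3R without the drug. The tagged protein was pulled down with streptavidin beads through its Avi tag. Of the 6 libraries, 2 were pull-downs from doxycycline-treated cells and 1 was their input, and 2 were pull-downs from untreated cells with 1 input. Each condition had 1 peak list on mm10, so no value below has a replicate error. All cells came from 1 line, and no expression was measured, so the labelled cell type could not be checked against markers.

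IGF1 and IGF2 are secreted peptides that signal through the tyrosine kinase receptor IGF1R, and IGF2 also acts through the insulin receptor. The activated receptors phosphorylate the docking proteins IRS1 and IRS2, which recruit PI3K and so switch on AKT and mTOR. IGF2R, the cation-independent mannose 6-phosphate receptor, has no kinase and clears IGF2 by carrying it to lysosomes. In the mouse embryo IGF2 made by the epicardium drives proliferation of the ventricular wall, and Igf2 and Igf2r are imprinted in opposite directions. GLI3R holds Hedgehog target genes down by binding them without activating transcription.

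Printed here are the promoter windows of Igf1r, Irs1 and Irs2, each running from 250 bases before to 50 after the annotated start. They come from RefSeq (GRCm38.p6) in the direction of transcription, and capitals mark the bases that a doxycycline peak covered. The Igf1r window (chr7:67952007-67952306, plus strand) had 41 covered bases, and the Irs2 window (chr8:11008880-11009179, minus strand) had 40. The Irs1 window (chr1:82291390-82291689, minus strand) has no capitals, since the nearest doxycycline peak began 15 bases upstream of it.
Igf1r: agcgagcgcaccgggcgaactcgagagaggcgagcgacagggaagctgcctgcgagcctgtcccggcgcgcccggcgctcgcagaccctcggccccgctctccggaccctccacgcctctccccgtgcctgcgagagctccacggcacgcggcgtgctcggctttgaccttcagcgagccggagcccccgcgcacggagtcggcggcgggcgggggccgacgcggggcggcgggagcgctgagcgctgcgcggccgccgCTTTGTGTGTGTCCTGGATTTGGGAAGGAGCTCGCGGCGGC
Irs2: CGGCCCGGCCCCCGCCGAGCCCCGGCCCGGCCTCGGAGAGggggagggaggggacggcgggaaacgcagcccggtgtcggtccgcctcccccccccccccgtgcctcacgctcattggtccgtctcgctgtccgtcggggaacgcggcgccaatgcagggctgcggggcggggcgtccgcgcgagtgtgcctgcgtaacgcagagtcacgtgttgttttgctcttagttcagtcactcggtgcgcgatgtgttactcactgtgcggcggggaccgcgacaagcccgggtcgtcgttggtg
Irs1: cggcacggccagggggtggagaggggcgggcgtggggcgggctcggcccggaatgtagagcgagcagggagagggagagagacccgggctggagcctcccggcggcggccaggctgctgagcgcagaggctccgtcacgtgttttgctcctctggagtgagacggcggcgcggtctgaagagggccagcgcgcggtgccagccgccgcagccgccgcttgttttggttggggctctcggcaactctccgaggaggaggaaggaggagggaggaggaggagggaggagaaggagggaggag

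Doxycycline summits lay near 5 of the 7 genes and were most numerous at Igf1r, Igf2 and Irs2. Signal was not compared between the conditions at any peak. Igf1r and Igf2 each had 5 doxycycline summits within 100 kb, Irs2 had 3, Irs1 had 2, Igf1 had 1, and Insr and Igf2r had 0. In the untreated list Irs1 and Insr had 1 summit each and the other 5 genes had 0. The share with a doxycycline summit at this distance was 5 of 7 here and 31.7% over all 21631 genes, and for the untreated list it was 2 of 7 and 30.6%. The median gene had 0 summits in either list, and the median of the 7 genes was 2 doxycycline summits and 0 untreated ones. None of the 16 doxycycline and 2 untreated peaks of these genes overlapped a peak of the other list. Such overlaps were rare throughout, with 2.01% of all doxycycline peaks and 1.71% of all untreated peaks, so a count of 0 among so few peaks is not particular to these genes. A doxycycline summit with no untreated one was found for 4 of the 7 genes, against 21.3% of all genes.

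**Figure D1:**
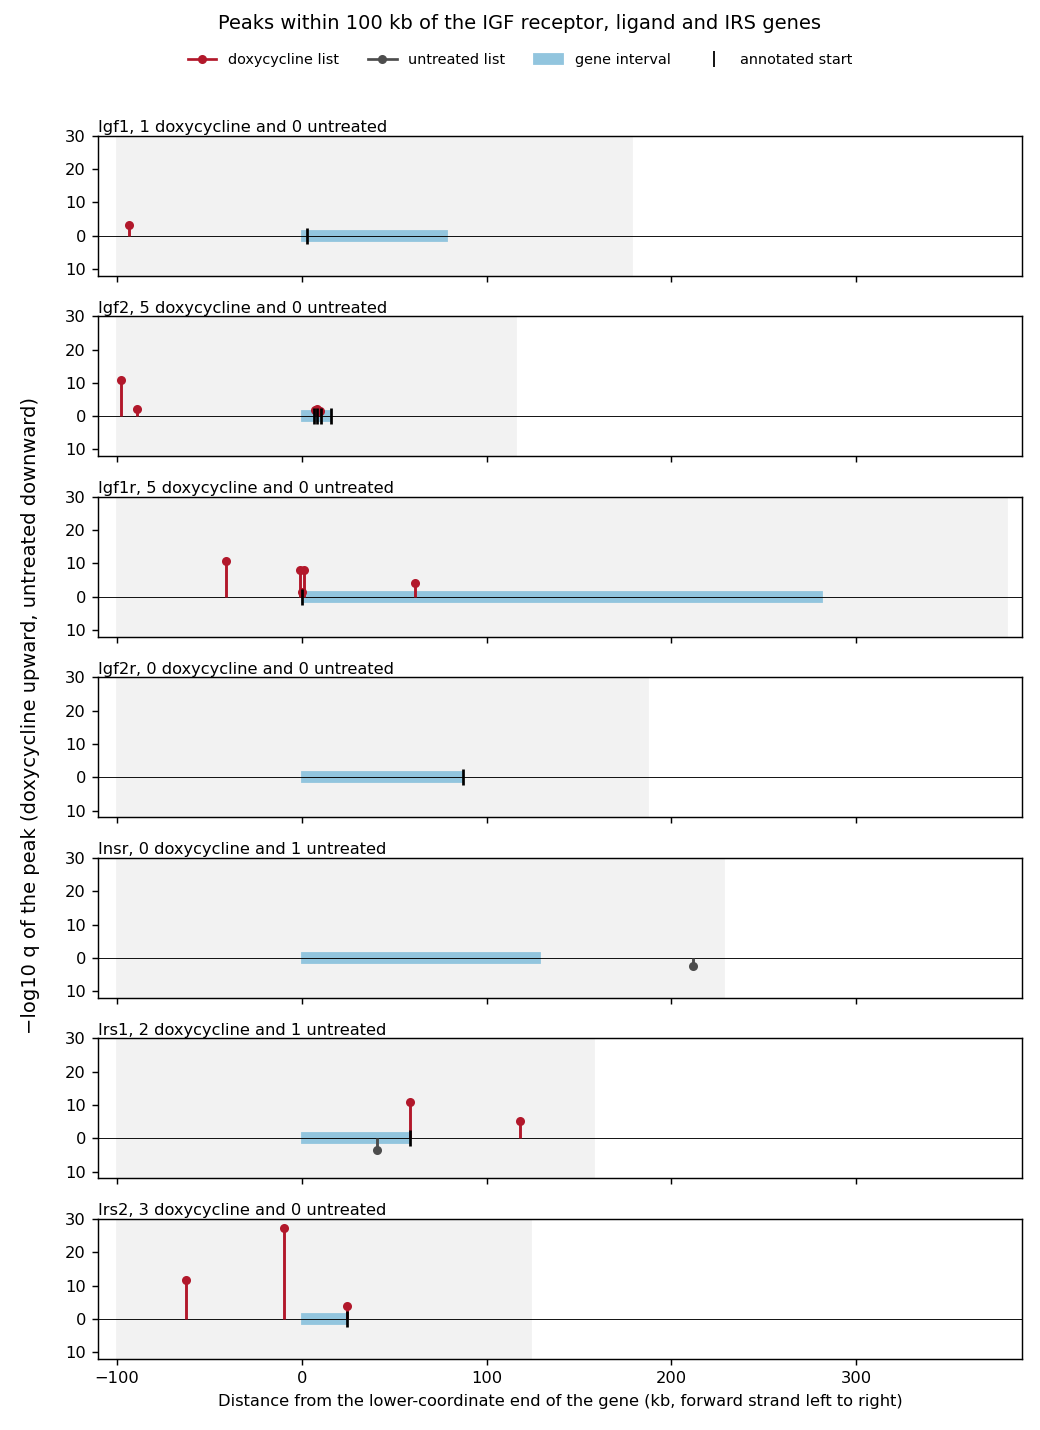
Peaks within 100 kb of each gene, placed by distance in kb from the lower-coordinate end of the gene interval (blue bar), with the 100 kb window shaded in grey and annotated starts as black ticks. Stem height is the −log10 q of the peak, with doxycycline peaks in red pointing up and untreated peaks in grey pointing down. The tallest stem, 27.3, stands beside Irs2, and Igf2r has no stem in either list.

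The ligand genes differed from each other. Igf2, the fetal growth ligand (chromosome 7, 142650768 to 142666816), held 3 doxycycline peaks inside the gene. From low to high coordinate, they lay at 142658060 to 142658216 with a 4.19-fold enrichment, at 142659219 to 142659438 with 4.31-fold, and at 142660649 to 142660785 with 3.93-fold. Each rested on 5 fragments at the summit, the smallest pileup in the doxycycline list, where 951 peaks (26.1%) had it. Their summits were 1.19 kb and 1.44 kb apart and lay among the alternative Igf2 starts. The first was 591 bases upstream of 1 start, the second 470 bases upstream of another, and the third 557 bases downstream of a further one. The local expectation at these 3 summits was 0.433, 0.391 and 0.526 fragments, above the list's usual 0.368. The last summit also lay inside Igf2os, the noncoding antisense gene of Igf2.

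A stronger Igf2 peak lay on the far side of the imprinted partner gene H19. The peak at 142552596 to 142552940 was 9.50-fold enriched over 12 fragments (−log10 q 10.8) and 98.0 kb from Igf2. Its summit fell inside Nctc1, a noncoding gene transcribed across an enhancer region that Igf2 and H19 share in mouse muscle, and the nearest protein-coding gene was Mrpl23, a mitochondrial ribosomal protein gene, 12.03 kb away. A further peak at 142561282 to 142561469 had 4.39-fold over 5 fragments and lay 14.2 kb from H19. No untreated summit was within 100 kb of Igf2, H19, Nctc1 or Igf2os, and the nearest one to Igf2 was 492 kb away. These noncoding genes were named after their values were seen. All 5 Igf2 summits were also within 100 kb of at least 1 of 4 other protein-coding genes. Ins2, an insulin gene, shared 3 of them.

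Igf1, the other ligand gene (chromosome 10, 87858265 to 87937047), had 1 doxycycline peak, at 87764611 to 87764783, 93.6 kb upstream of the gene. It was 5.12-fold enriched over 6 fragments with a −log10 q of 3.07, a strength that 71.4% of the doxycycline list reached. No untreated summit lay within 100 kb, and the nearest was 279 kb away. Igf1 thus stood close to the 100 kb limit and had no summit in or beside the gene.

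Among the receptor genes, Igf1r alone had doxycycline peaks within 100 kb. Igf1r (chromosome 7, 67952257 to 68233668) had 3 summits around its annotated start, at 708 bases upstream, 34 bases downstream and 1.04 kb downstream. The upstream peak at 67950730 to 67951618 was 8.04-fold enriched over 10 fragments and spanned 889 bases. The downstream peak at 67953218 to 67953460 was also 8.04-fold over 10 fragments, and both had a −log10 q of 7.95. Between them, the peak at 67952266 to 67952428, whose first 41 bases stand in capitals in the sequence above, was only 3.93-fold over 5 fragments (−log10 q 1.45), with a local expectation of 0.526 fragments. The remaining Igf1r peaks were a 9.50-fold peak 41.1 kb upstream (67910943 to 67911297, 12 fragments, −log10 q 10.8) and a 5.82-fold peak 61.3 kb downstream of the start (68013445 to 68013589, 7 fragments). For all 5, Igf1r was the nearest protein-coding gene and the only one within 100 kb. The untreated list had no summit within 100 kb of Igf1r, the nearest being 199.7 kb away.

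Insr and Igf2r showed none of this. Insr, the insulin receptor (chromosome 8, 3150922 to 3279649), had no doxycycline summit nearer than 1744 kb. Its 1 untreated peak, at 3362724 to 3362866, was 4.72-fold over 5 fragments, lay 83.2 kb away and fell inside Arhgef18. Igf2r (chromosome 17, 12682406 to 12769706) had its nearest doxycycline summit at 246 kb and its nearest untreated summit at 872 kb. Airn, the noncoding gene that silences paternal Igf2r in mouse, had 0 summits within 100 kb in both lists. Having no summit in either list was common, at 48.1% of all genes.

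The strongest doxycycline peak of the 7 genes belonged to Irs2. Irs2 (chromosome 8, 10984681 to 11008929) had a 16.8-fold peak over 22 fragments at 10974635 to 10975079, 9.74 kb downstream of the gene. Its −log10 q of 27.3 ranked 50 among 3640 doxycycline peaks, and 99 of 21631 genes (0.458%) had a doxycycline peak at least as strong within 100 kb. A further downstream peak, at 10921914 to 10922215 and 62.7 kb from the gene, was 9.97-fold over 13 fragments (−log10 q 11.8, local expectation 0.405). The third, at 11009140 to 11009460, had its summit 402 bases upstream of the start and ran 40 bases into the promoter window printed above. It was 5.56-fold over 7 fragments, with a −log10 q of 3.81 and a local expectation of 0.439. Its summit was also inside 9530052E02Rik, a noncoding gene. No untreated summit lay within 100 kb of Irs2, the nearest being 180.1 kb away. Irs2 was the nearest protein-coding gene to all 3 peaks and the only one within 100 kb.

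Irs1, the paralogous docking protein gene (chromosome 1, 82233105 to 82291439), was the only 1 of the 7 with summits in both lists. Its doxycycline peak at 82291704 to 82291887 was 9.50-fold over 12 fragments (−log10 q 10.8), with the summit 367 bases upstream of the start. The other doxycycline peak, at 82351282 to 82351426, was 6.58-fold over 8 fragments and lay 59.9 kb upstream, inside Rhbdd1, a rhomboid protease gene. The untreated peak at 82273960 to 82274181 was inside Irs1, 17.4 kb downstream of the start, at 5.50-fold over 6 fragments (−log10 q 3.64). That summit was 17.8 kb from the nearest doxycycline summit, the closest approach of the lists at any of the 7 genes. The stronger doxycycline peak was thus just upstream of the gene start, the weaker one was inside Rhbdd1, and the untreated peak was in the gene body.

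Summits close to annotated starts were counted as well. Of the 6 genes with a start in the RefSeq promoter table, Igf1r, Igf2, Irs1 and Irs2 had a doxycycline summit within 1 kb of a start, against 1.37% of 17274 genes. In the untreated list 0 of the 6 did, against 0.249%. This distance was chosen after the values were seen, and Igf2 has 4 annotated starts where the other 5 genes have 1. Igf1r and Igf2 each had 3 doxycycline summits within 2 kb of a start, and 7 of 17274 genes (0.0405%) had at least 3. The other 5, named after their values were seen, were Hmga2, Brd2, H2-DMa, Map1b and Rnd3. The 2 kb distance and the count of 3 were not planned beforehand. Within 1 kb, Igf1r had 2 summits and Igf2 had 3, and 16 genes (0.0926%) had at least 2. The weakest of these peaks at Igf1r and at Igf2 had a −log10 q of 1.45, near the list's lowest of 1.33. The peaks near the Igf1r and Irs1 starts had 10 to 12 fragments, apart from the weak Igf1r peak at the start itself. The Irs2 peak near the start had 7 and all 3 at Igf2 starts had 5. The local expectation was above the list's usual value at 5 of these 8 peaks, and its part in the calls was not tested.

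**Figure D2:**
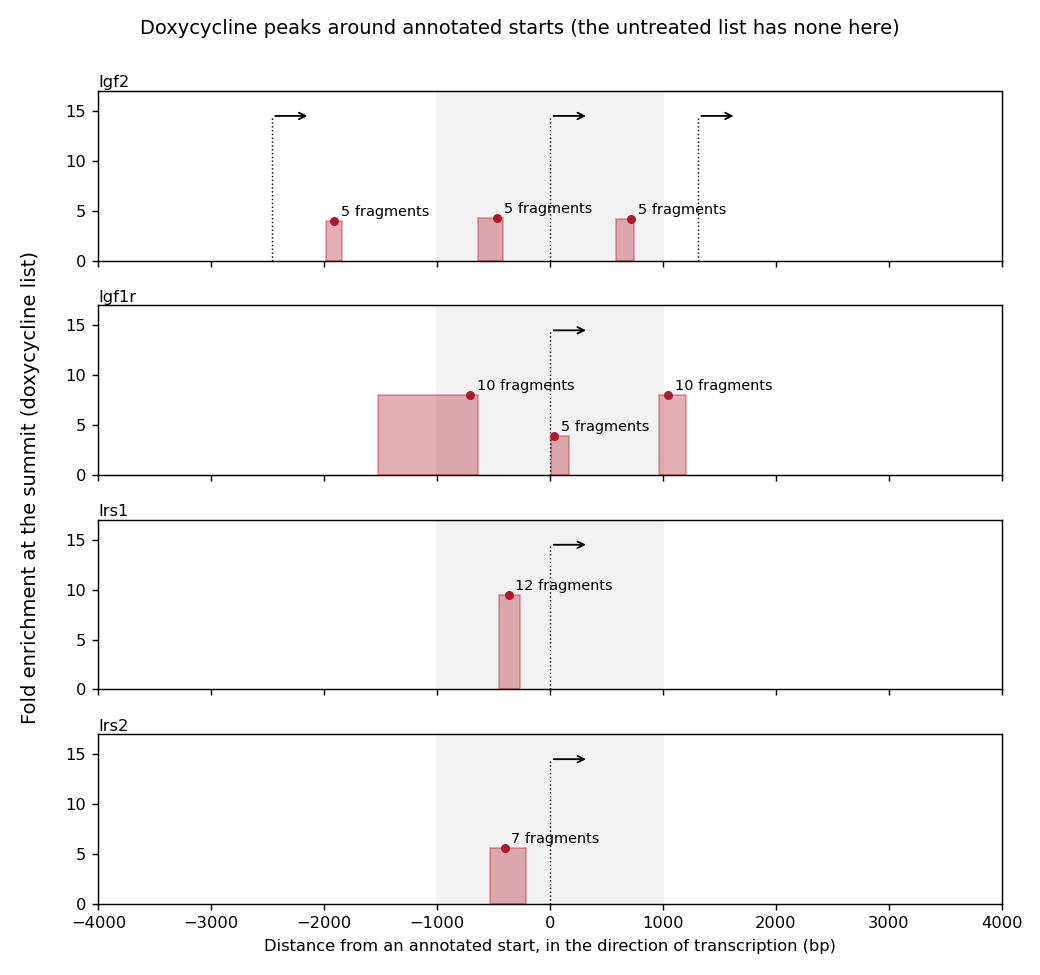
Doxycycline peaks within 4000 bases of annotated starts of Igf2, Igf1r, Irs1 and Irs2, drawn in the direction of transcription. Bars span each peak and reach its fold enrichment at the summit (dot), labelled with the fragments over the summit, arrows mark starts, and grey marks 1 kb on either side of 1 start per gene. Igf1r has 10 fragments on both sides of its start and 5 at it, and each Igf2 peak has 5.

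Base composition and the GLI motif were read from the promoter windows. Those of Igf1r, Irs2 and Irs1 were 76.0%, 72.0% and 71.3% G or C, and the median of 21045 windows of protein-coding genes was 56.7%. The 4 Igf2 windows ranged from 49.7% to 64.7%, and 2 of them were below that median. The 3 doxycycline summits within 1 kb of Igf2 starts were nearest to the starts with windows of 63.3%, 64.7% and 49.7%. Igf2r, with no peak, was close to Irs1 and Irs2 at 70.7%, and Igf1, with no peak near its start, had 52.3%. The 94 windows that any doxycycline peak overlapped had a median of 67.2%, and the part of base composition in the calls was not tested. The GLI consensus GACCACCCA was searched on both strands, exactly and with up to 1 mismatch. It was in 0 of the 9 windows of these genes in either form. Of these 9, doxycycline peaks overlapped only the Igf1r and Irs2 windows, by 41 and 40 bases. A count of 0 thus says little about the peaks. Exact matches were in 5.32% of the windows that a doxycycline peak overlapped and in 0.181% of all windows. With up to 1 mismatch the shares were 37.2% and 6.78%. The windows hold only a small part of the peaks, and the sequence under the other peaks was not analysed here.

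The 16 doxycycline peaks of the 7 genes had a median fold of 6.20 and a median pileup of 7.5 fragments, against 5.50 and 7 for all 3640 doxycycline peaks. At a −log10 q of 5 or more, 8 of the 16 remained, against 33.3% of all doxycycline peaks. They lay near 4 of the 7 genes (Igf1r, Igf2, Irs1 and Irs2), against 13.9% of all genes. Igf2 reached that limit only through the peak inside Nctc1, 98.0 kb away. The 3 peaks near Igf2 starts had a −log10 q of 1.92, 2.05 and 1.45. In the untreated list the same limit left 0 of 2 peaks, against 9.41% of all untreated peaks, and 0 of the 7 genes, against 3.37% of all genes. The untreated peaks of Irs1 and Insr, with 6 and 5 fragments, lay near that list's median of 5. A doxycycline summit could be listed with 5 fragments and an untreated summit with 4, so a gene without a peak is one that missed these limits.

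**Figure D3:**
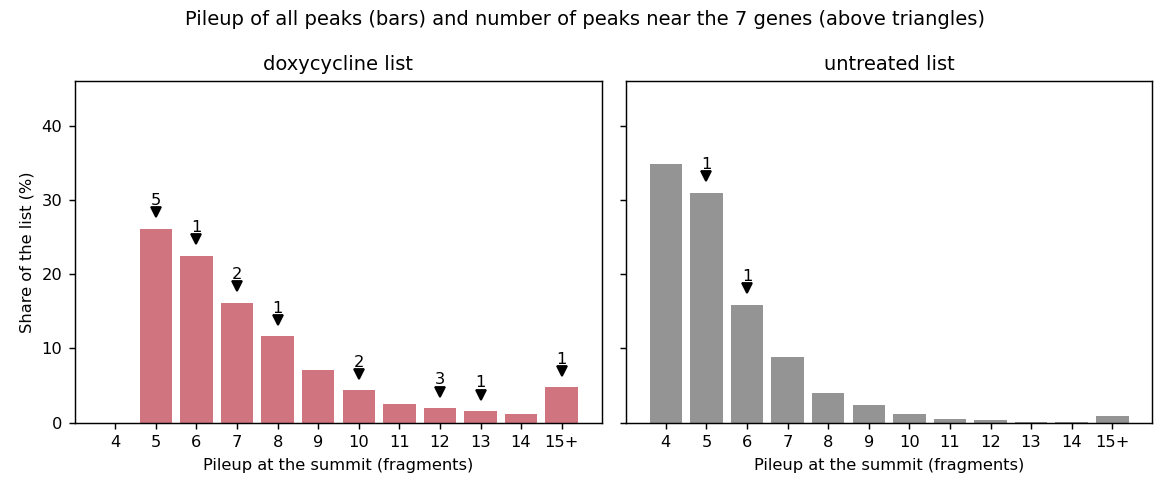
Share of each peak list (%) by the number of fragments over the summit, for the doxycycline list (left) and the untreated list (right), with 15 or more in 1 class. Numbers above triangles count the peaks near the 7 genes in each class. Of the 16 doxycycline peaks 5 sit in the lowest class of that list and 7 have 10 or more fragments.

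Long genes have wide windows, so peaks were also set against window length. The 7 windows together span 2.07 Mb and hold 7.71 doxycycline summits per Mb and 0.964 untreated summits per Mb, against 1.71 and 1.55 over the windows of all genes. Igf2 was the densest, with 23.1 doxycycline summits per Mb, a density that 0.111% of all genes reached. Its window is short, and all its summits except the one inside Nctc1, 98.0 kb away, rested on 5 fragments, the list's smallest pileup. Irs2 had 13.4, Igf1r had 10.4, Irs1 had 7.74 and Igf1 had 3.59. At least 5 doxycycline summits, as at Igf1r and Igf2, were found at 0.222% of all genes, and at least 5 untreated summits at 0.106%. Among genes of at least 50 kb, 39.7% had a doxycycline and 43.5% an untreated summit, and of the 5 such genes here 3 and 2 did.

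At the 100 kb limit of the doxycycline list, the Nctc1 peak of Igf2 at 98.0 kb and the Igf1 peak at 93.6 kb were just inside. The nearest outside were a 10.5-fold peak 120.5 kb from Irs1, a 4.01-fold peak 149 kb from Igf1r and a 15.3-fold peak 193 kb from Igf2. In the untreated list the Insr peak at 83.2 kb was the farthest inside, and the nearest outside was a 4.72-fold peak 180.1 kb from Irs2.

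Other genes of the pathway, 63 in all, had summits at shares close to those of all genes when pooled, and the small role groups varied around them. Doxycycline summits lay within 100 kb of 23 of the 63 (36.5%, against 31.7% of all genes). Untreated summits lay within that distance of 22 (34.9%, against 30.6%), and both kinds of 10 (15.9%, against 10.4%). Keeping only peaks whose −log10 q reached 5, doxycycline peaks were near 13 (20.6%, against 13.9%) and untreated peaks near 3 (4.76%, against 3.37%).

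Of 13 genes for IGF binding proteins and their regulators, 4 had a doxycycline and 1 an untreated summit. The strongest was a 7.55-fold doxycycline peak 79.9 kb from Igfbp4, whose product holds IGFs outside the cell, with Ccr7 nearer. Equal next, at 6.58-fold over 8 fragments, were doxycycline peaks 83.7 kb from Igfbp6, another binding protein gene, with Eif4b nearer, and 42.5 kb from Pappa2, a protease gene that frees IGF from binding proteins. The untreated peak of the group was inside Pappa2, at 5.50-fold. Of 6 genes for insulins, the related receptor Insrr and IGF2 mRNA binding proteins, 3 had a doxycycline and 4 an untreated summit. Igf2bp1, which encodes an RNA-binding protein of fetal tissue, held a 10.9-fold doxycycline peak over 14 fragments inside the gene (chromosome 11, 95990830 to 95991672), and 1 untreated summit within 100 kb. Its paralogue Igf2bp2 had only an untreated peak, 8.65-fold and 75.3 kb away, with Tra2b nearer. Ins1 had a 4.39-fold doxycycline peak 38.0 kb away and also 1 untreated summit.

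Receptor adaptors and negative regulators had a doxycycline summit at 6 of 15 genes and an untreated one at 7. Socs3, a feedback inhibitor of cytokine and insulin signalling, had a 15.3-fold doxycycline peak over 20 fragments, 24.1 kb away (chromosome 11, 117941812 to 117942151), and 0 untreated peaks. Nedd4, a ubiquitin ligase gene, had a 10.96-fold doxycycline peak 56.9 kb away and 0.491 kb from Prtg, beside 1 untreated summit within 100 kb. The strongest untreated peak of the group, 11.3-fold, was inside both Sos1, the RAS exchange factor gene, and its neighbour Arhgef33. Sos1 also held a 5.85-fold doxycycline peak over 7 fragments. Of 19 PI3K, AKT and FOXO genes, 7 had a doxycycline and 8 an untreated summit. They included Foxo3, a transcription factor that AKT excludes from the nucleus, with a 13.04-fold doxycycline peak 41.8 kb away and 1 untreated summit, and Pik3r2, a PI3K regulatory subunit, with a 10.96-fold one 75.4 kb away and inside Kcnn1. Pik3r3, another regulatory subunit, had an untreated peak of 6.18-fold at 73.4 kb, with Pomgnt1 nearer. Of 10 mTOR genes, 3 had a doxycycline and 2 an untreated summit. Deptor, an mTOR inhibitor, held a 10.2-fold doxycycline peak inside the gene and had an untreated peak of 5.50-fold at 12.2 kb. Eif4ebp1, a translation repressor that mTOR inactivates, had a 6.21-fold doxycycline peak at 25.6 kb, with Adrb3 nearer.

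**Figure D4:**
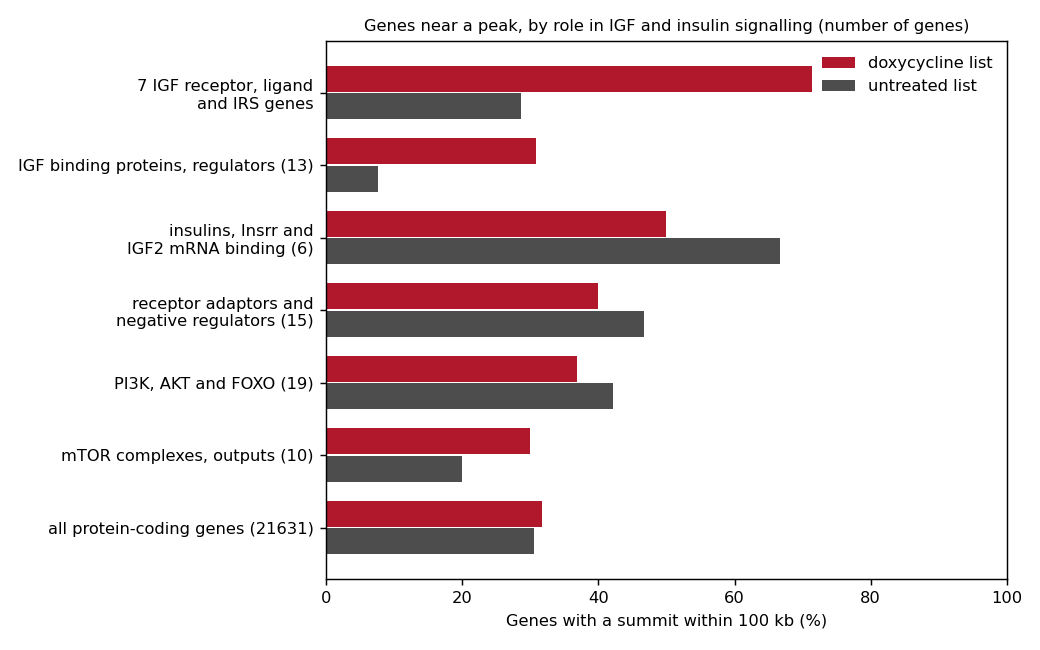
Share of genes (%) with a summit within 100 kb in the doxycycline list (red) and the untreated list (grey), for the 7 genes, the role groups of the pathway with their number of genes, and all protein-coding genes. The 7 genes have 71.4% and 28.6%, and all genes have 31.7% and 30.6%.

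Irs2 was set beside the genes with the most similar pattern, measured by the number of summits and the highest −log10 q in each of the 2 lists. The nearest were Khdc3, Pigb and Pigbos1, each with 2 doxycycline summits, 0 untreated summits and a best −log10 q of 27.3. These neighbours on chromosome 9 share both summits, so they count as 1 case. That likeness rests on 4 values from 2 lists. As a check of the pull-down, Ptch1, a direct Hedgehog target, had 7 doxycycline and 0 untreated summits within 100 kb, its best peak at 17.7-fold over 25 fragments.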

How the data were processed

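Samples were grouped by their titles, which name GLI3R where the labels' treatment text names GLI1. Reads were processed with MACS2 2.1.1, SAMtools 1.5 and Bowtie2 2.3.2 on build mm10, per the submitters' processing notes. No source used here gives the settings, whether the pair of pull-downs was pooled or whether the inputs were used. Library depths were not analysed here. The fold enrichment at the summit is a ratio the authors deposited, and the −log10 p and −log10 q are the authors' deposited values. They belong to single peaks and describe or rank peaks within a list.

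Rows sharing an interval were merged, leaving 3640 doxycycline and 4379 untreated peaks. Pileup and local expectation were worked back from fold and −log10 p, taking fold as (pileup + 1) / (expectation + 1) and p as the Poisson upper tail. This matched within 0.01 for 99.8% of each list, and every peak near the 7 genes matched. The usual expectation was 0.368 fragments for doxycycline peaks and 0.272 for untreated peaks. Pileups this small leave a wide counting error. Coordinates count from 1. Gene intervals and promoter windows came from RefSeq tables on GRCm38.p6, the assembly of mm10. The promoter table held 9 windows for 6 of the 7 genes, and 269 protein-coding genes on chromosome Y and the mitochondrial genome were left out. Exons and introns were not analysed here, and the planned motif search within peaks was not run because no genome was used.

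The genes and role groups were chosen with earlier results of these data known. By rule the text names the 7 genes, the protein-coding gene nearest to or holding each of their summits, and Ptch1. From each role group it names the 2 genes with the strongest doxycycline peak and the 1 with the strongest untreated peak. It also names the 3 genes with the smallest Euclidean distance to Irs2. No test was made, since each condition had 1 list. Steps were tested on simulated data. The software was Python 3.11.15 with scipy 1.17.1, numpy 2.4.6, matplotlib 3.10.9 and pandas 2.3.3.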

Additional observations from a re-analysis of the deposited data

How the results depend on the processing

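No paired analysis was possible because the files hold 1 peak list for doxycycline and 1 for untreated cells. For the same reason no replicate could be left out. The 200 kb limit and the 1 kb distance from starts were chosen after seeing the data, and the 2 kb distance was not planned beforehand. The number of genes with a doxycycline summit, 5 of 7, stayed at 4 or 5 under every alternative run, while the share over all genes moved. It was 4 within 50 kb (20.3% of all genes), 4 within 10 kb (9.66%) and 4 among the top 1000 peaks (11.8%). With the nearest gene only it was 5 (10.9%), and within 200 kb it was 5 (49.4%). The number with an untreated summit, 2, was 1 within 50 kb (19.1% of all genes) and 1 within 10 kb (8.70%). It was also 1 among the top 1000 peaks (8.16%) and 1 with the nearest gene only (11.3%). It was 0 at a −log10 q of 5 or more (3.37%), 0 within 1 kb of a start (0.249% of genes with a start) and 4 within 200 kb (48.1%). The 16 doxycycline summits became 10 within 10 kb, 8 at a −log10 q of 5 or more and 8 among the top 1000 peaks. The 2 untreated summits became 1 within 50 kb, 1 within 10 kb, 1 among the top 1000 peaks, 1 with the nearest gene only, 0 at a −log10 q of 5 or more and 4 within 200 kb. Fewer peaks or shorter windows give fewer summits by construction. Shared peaks were 0 also when intervals within 500 bp, or with a reciprocal overlap of 50%, were counted, which says little where 2.01% of all doxycycline and 1.71% of all untreated peaks are shared. With pileups that begin at 5 and 4 fragments, absence from a list shows only that its threshold was missed.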
